A study of Sus scrofa with 6 samples.

Results

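The comparison between weaned and suckling jejunum 4 d after weaning rested on 2 of the 6 small RNA libraries of the series. W4 came from jejunum of Duroc x Yorkshire x Landrace barrows that were separated from the sow at 25 d of age, given a commercial diet and sampled 4 d later, at 29 d. S4 came from barrows of the same cross that stayed with the sow until they were sampled at 29 d. By the paper, both groups came from the same 4 litters, and W4 took a piglet from each. The litters of both groups had access to a pre-starter feed while with the sow. The RNA of 4 piglets went into each library in equal parts and came from whole cross-sections of the gut wall, so epithelium, muscle, vessels, nerves and immune cells were all included. There was no replicate of either condition. A ratio of W4 to S4 therefore describes these pools, the spread between piglets was not measured, and no p-value was computed.

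The rule took the read counts of W4 and S4, 1 row per mature sequence, and kept the sequences that held 50 or more reads in the pair. That left 244 of 533 sequences, of which 202 carried the name of a known miRNA, 41 that of a predicted candidate and 1 no name. They held 99.96% of the counts of W4 and 99.98% of those of S4. The total was 4503899 counts in W4 and 5312358 in S4. By the paper, cleaning left a smaller part of the reads of W4 than of any other library. More reads of W4 were also discarded for their length. The paper did not regard the libraries as differing greatly in clean reads. The part of this difference in the ratios was not tested. Levels are given as CPM, the count scaled to the library total. Each ratio is the log2 of W4 over S4, so that 1 is 2-fold higher in W4, with an exact 95% interval that covers counting error only. The ratio was also taken with TMM scaling, which sets the bulk of sequences equal between the libraries and here lowered every log2 ratio by 0.83. A sequence was counted as higher or lower at 2-fold or more.

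A mature miRNA is a short strand of RNA, cut from a hairpin precursor, that guides a repressor complex to messenger RNAs. Bases 2 to 8 from its 5′ end, the seed, do most of the pairing with a target, so miRNAs with the same seed share many targets. The name of an arm, 5p or 3p, says which side of the hairpin it came from. In the intestine, miR-192, miR-194 and miR-215 are abundant in the absorptive epithelium, miR-143 and miR-145 in smooth muscle and stroma, and miR-142, miR-150 and miR-155 in leukocytes. miR-146a, miR-146b, miR-155 and miR-132 are known from mouse and human cells as miRNAs induced by inflammatory signals. Weaning is a period in which the villi of the piglet jejunum shorten and the crypts lengthen.

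At 4 d after weaning, 10 of the 244 sequences were at least 2-fold higher in W4 than in S4 under both scalings (4.10% of those measured), and 7 were at least 2-fold lower under both (2.87%). The higher sequences were 5 known miRNAs, miR-146b, miR-29b, miR-132, miR-221-5p and miR-155-5p, and 5 candidates. With TMM scaling the counting interval lay wholly beyond 2-fold for 5 of these 10, miR-146b, miR-29b, SSC1_6467, SSCM_18120 and SSC6_13802. For the others it reached below 2-fold. The lower ones were miR-192, miR-215 and both arms of miR-194b, with 3 candidates. These 17 are printed here 5′ to 3′ as the count tables give them, with the seed in capitals, because the results turn on them. The higher sequences were:

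miR-146b: uGAGAACUgaauuccauaggc
miR-29b: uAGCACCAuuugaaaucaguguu
miR-132: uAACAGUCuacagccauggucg
miR-221-5p: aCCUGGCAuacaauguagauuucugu
miR-155-5p: uUAAUGCUaauugugauagggg
SSC1_6467: uGUGGUUGuggcauagaccucag
SSC13_1737: uGUAGCUGuggcauagaccucag
SSCM_18120: aUGGAAUGcuuguuuugguug
SSC9_16912/SSC9_16916: gGCAGUGUaauuagcugauugu
SSC6_13802: uGUGUGUGggcgccggacgcc

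The lower sequences were:

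miR-192: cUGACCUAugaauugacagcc
miR-215: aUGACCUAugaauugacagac
miR-194b-5p: uGUAACAGcgacuccaugugga
miR-194b-3p: cCAGUGGAgaugcuguuaccuu
SSC13_2521: cAGCUGCCaguugaauaac
SSCX_18135/SSCX_18482: aCCAGACUcugagagcaggac
SSC1_7989: uCUGUCAUuucuguaggcuau

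A further 4 known sequences are shown because each is a close copy of one above or shares its seed:

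miR-146a-5p: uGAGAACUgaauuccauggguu
miR-29c: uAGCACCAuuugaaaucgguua
miR-194a: uGUAACAGcaacuccaugugg
miR-22-3p: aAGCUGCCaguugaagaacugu

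Over all 244 sequences most points lay above equality under the library total. The log2 ratio was above 0 for 220 sequences, with a median of 0.83, a highest value of 3.71 and a lowest of -3.82. By the library total 82 sequences (33.6%) were at least 2-fold higher in W4 and 7 (2.87%) at least 2-fold lower. With TMM scaling 10 (4.10%) were higher and 21 (8.61%) lower, and the median was -0.0026. The 2 scalings thus differed in the level they call unchanged, and the order of the sequences was the same under both.

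**Figure D1:**
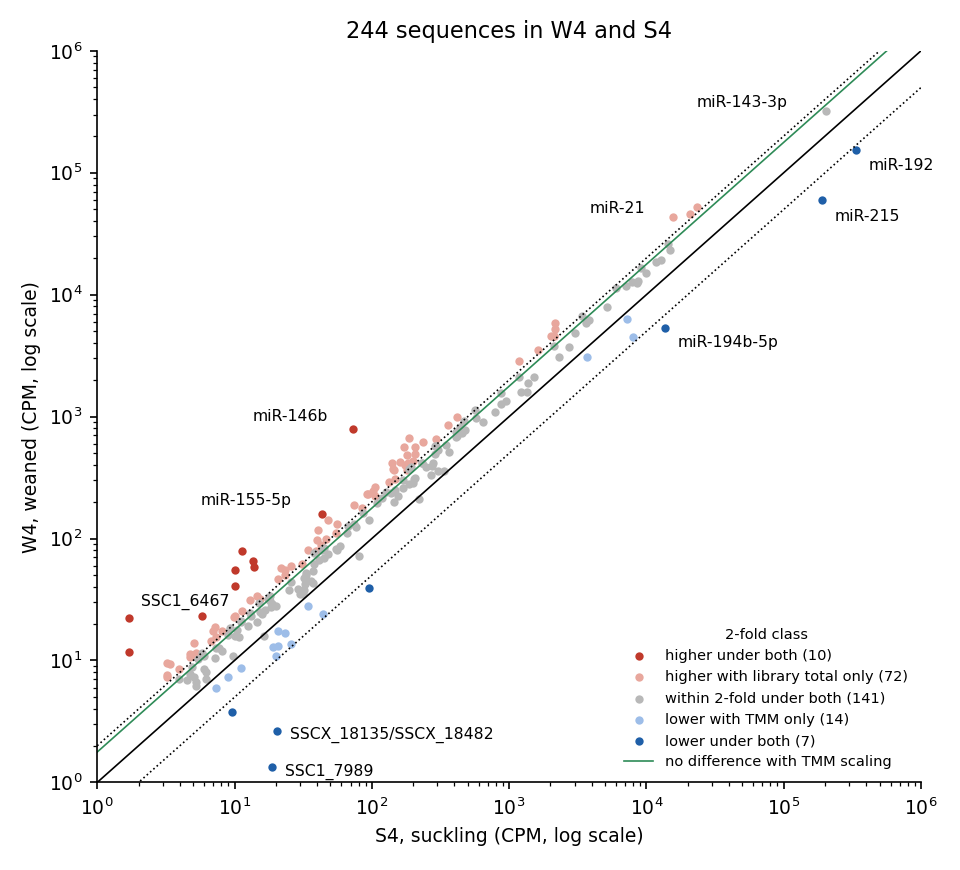
Level of each of the 244 sequences in W4 (vertical, CPM, log scale) against S4 (horizontal, CPM, log scale), coloured by whether it was at least 2-fold apart under both scalings, under 1 or under neither. The black line is equality, dotted lines are 2-fold, and the green line is equality with TMM scaling. miR-192 and miR-215 lie far below the band at high levels and miR-146b lies above it.

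miR-146b had the highest ratio among known miRNAs. It held 3558 reads in W4 and 388 in S4, or 790 CPM and 73.0 CPM, which was 10.8-fold. The log2 ratio was 3.44 (3.28 to 3.59) by the library total and 2.61 with TMM scaling. In the other suckling pools miR-146b stood at 88.4 CPM in S1 (26 d of age) and 213 CPM in S7 (32 d), so that W4 was 3.70-fold above the highest of the 3 suckling libraries. Its relative miR-146a-5p, which has the same seed and differs at 2 of 21 aligned bases near the 3′ end, held 2986 reads in W4 and 995 in S4. The ratio of miR-146a-5p was 1.82 (1.72 to 1.93), and 1.00 with TMM scaling, where it fell just short of 2-fold. In mouse and human cells both dampen signalling below Toll-like and interleukin-1 receptors. The distance of 1.61 between their log2 ratios was the largest within any of the 35 seed groups with 2 or more measured sequences.

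miR-155-5p, which is made by activated leukocytes, held 721 reads in W4 and 229 in S4. This was 160 CPM against 43.1 CPM, a log2 ratio of 1.89 (1.68 to 2.11), and 1.07 with TMM scaling. S1 had 42.5 CPM and S7 75.6 CPM of miR-155-5p, both below W4. miR-132, induced through the transcription factor CREB in neurons and immune cells of mouse and human, held 263 reads in W4 and 74 in S4. Its ratio was 2.07 (1.69 to 2.46), and 1.24 with TMM scaling. miR-212, from the same precursor transcript, had too few reads for the rule, 24 in W4 and 7 in S4.

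miR-221-5p, the less abundant arm of a miRNA that targets a brake on the cell cycle, held 184 reads in W4 and 54 in S4. The ratio was 2.01 (1.56 to 2.47), and 1.18 with TMM scaling. The abundant arm, miR-221-3p, was at 558 CPM in W4 and 206 CPM in S4, with a ratio of 1.44 (1.33 to 1.54). The 5p share of the reads of both arms was 6.82% in W4 (95% Wilson interval 5.93% to 7.84%) and 4.70% in S4 (3.62% to 6.08%), and these intervals overlapped. No aligned read in the part of the alignment table used here shared 15 bases with the sequence named miR-221-5p.

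miR-29b, whose family represses collagens and other matrix proteins, held 294 reads in W4 and 72 in S4, a ratio of 2.27 (1.89 to 2.66), and 1.44 with TMM scaling. miR-29a and miR-29c were more abundant and had lower ratios. miR-29a had 481 CPM in W4 and 180 CPM in S4, and miR-29c 427 CPM and 160 CPM, with log2 ratios of 1.42 and 1.41. The interval of miR-29b did not reach these values.

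**Figure D2:**
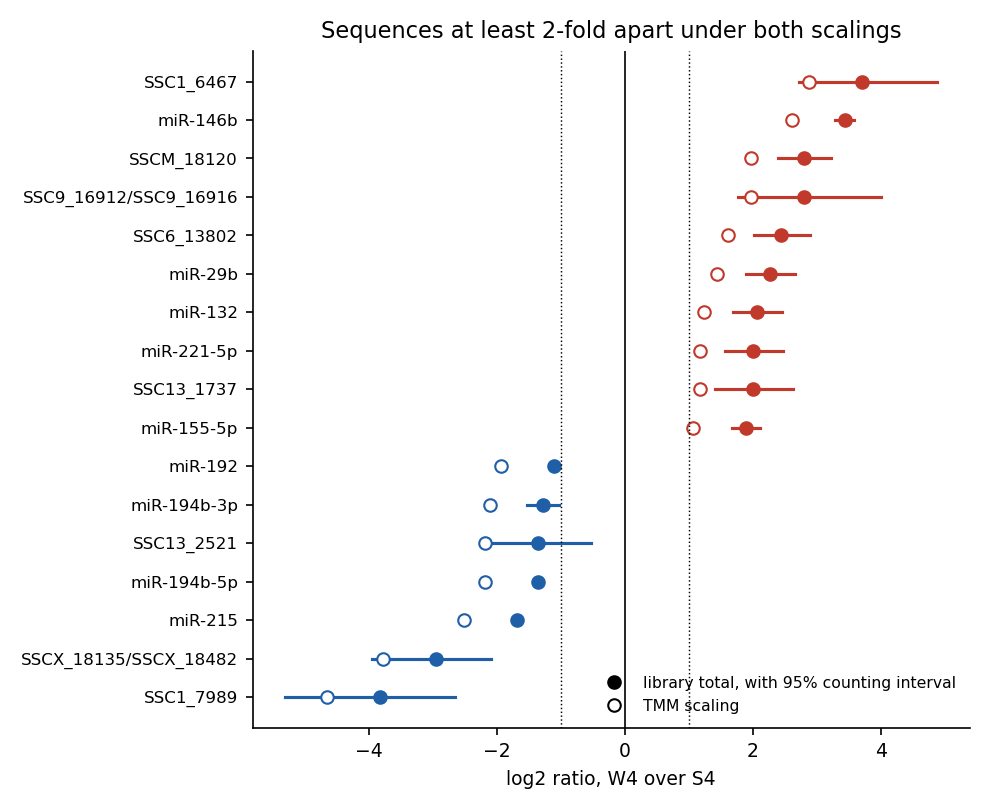
Log2 ratio of W4 over S4 for the 17 sequences at least 2-fold apart under both scalings. Filled points are by the library total with the exact 95% counting interval, open points are with TMM scaling, and dotted lines are 2-fold. The 5 known higher sequences lie between 1.89 and 3.44 and the 4 known lower ones between -1.68 and -1.11.

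On the lower side, miR-215 had the lowest ratio among known miRNAs. It held 267914 reads in W4 and 1014175 in S4, or 59485 CPM against 190909 CPM, which was 3.21-fold lower. The log2 ratio was -1.68 (-1.69 to -1.68), and -2.51 with TMM scaling. miR-192 held 696395 reads in W4 and 1773960 in S4, a ratio of -1.11 and -1.94 with TMM scaling. miR-192 and miR-215 have the same seed and differ at 2 of 21 bases, so shorter reads could have been counted at both, and the count tables do not say how such reads were divided.

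miR-194b-5p, from a hairpin that neighbours that of miR-215, stood at 5313 CPM in W4 and 13633 CPM in S4. Its ratio was -1.36 (-1.38 to -1.34) and -2.19 with TMM scaling. The other arm, miR-194b-3p, was at 39.1 CPM in W4 and 94.7 CPM in S4, with a ratio of -1.28 (-1.53 to -1.03). The 5p share of miR-194b was 99.27% in W4 and 99.31% in S4, so both arms were lower by nearly the same amount. miR-194a, whose hairpin neighbours that of miR-192, was at 4457 CPM in W4 and 7941 CPM in S4. With a ratio of -0.83 (-0.86 to -0.81) it was 2-fold lower with TMM scaling only (-1.66). In the RefSeq annotation of Sscrofa11.1 the miR-215 and miR-194b genes lie within 10000 bases of each other, and so do those of miR-192 and miR-194a, at another place. Members of the same neighbourhood were closer in ratio (0.41 and 0.28 apart) than the near copies miR-192 and miR-215 (0.57) or miR-194a and miR-194b-5p (0.53).

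The suckling libraries lay close together for the 4 known lower sequences. miR-192 had 154620 CPM in W4, against 333931 CPM in S4, 352827 CPM in S1 and 344841 CPM in S7. For miR-215, W4 had 59485 CPM, against 198783 CPM in S1 and 172958 CPM in S7. W4 was 2-fold or more below every suckling library for miR-192, miR-215 and both arms of miR-194b, which were 4 of the 7 lower sequences, and 2-fold or more above every one for all 10 higher sequences. With TMM scaling over the 6 libraries it held for 4 of the lower and 6 of the higher sequences. miR-155-5p, miR-29b, miR-132 and SSC1_6467 were then less than 2-fold above the highest suckling library. These sequences were chosen by W4 and S4, so their distance from S4 was set by the rule. Choice by a high or low W4 also favours a distance from S1 and S7, so these counts are a description.

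**Figure D3:**
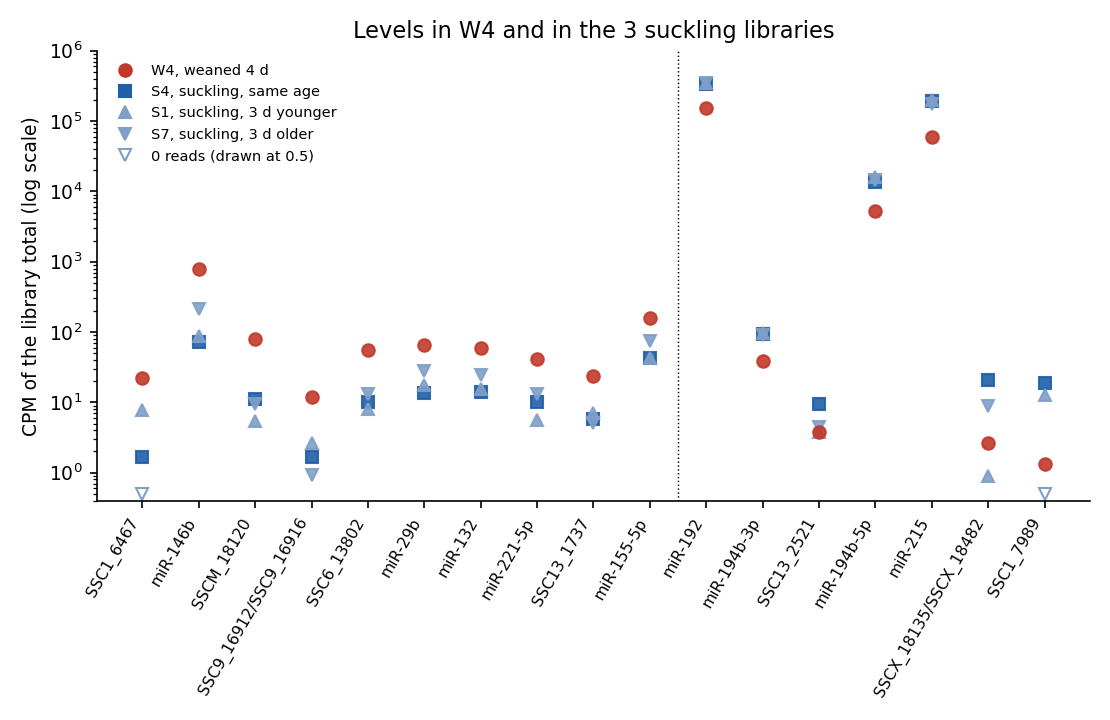
Level (CPM, log scale) of the 17 sequences in W4, in S4 of the same age, and in the suckling libraries S1 and S7, which were 3 d younger and older. The higher sequences are left of the dotted line. W4 lies above all suckling libraries for each of the 10 and below them for 5 of the 7, and for SSCX_18135/SSCX_18482 and SSC1_7989 it lies between them.

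The 5 higher candidates had fewer reads and wider intervals. SSC1_6467 held 100 reads in W4 and 9 in S4, a ratio of 3.71 (2.73 to 4.88). It had 35 reads in S1 and none in S7, W1 or W7, so it was absent from the other weaned libraries and not steady among suckling pools. SSC13_1737 differs from it at 2 of 23 bases and held 105 reads in W4 and 31 in S4, with a ratio of 2.00 (1.41 to 2.63). Since these 2 are near copies, their reads may not be wholly separate.

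SSCM_18120, predicted on the mitochondrial sequence, held 354 reads in W4 and 60 in S4. Its ratio of 2.80 (2.40 to 3.22) stood 6.96-fold above S4, the highest of the suckling libraries for this sequence. SSC6_13802, with a GC content of 76.2%, held 250 reads in W4 and 54 in S4, a ratio of 2.45 (2.02 to 2.90). SSC9_16912/SSC9_16916 held 53 reads in W4 and 9 in S4. Aligned with a shift of 1 base it differs from miR-34c at 2 of 22 bases, and miR-34c itself had 78 reads in W4 and 37 in S4.

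Of the 3 lower candidates, SSC1_7989 had the lowest ratio of all sequences. It held 6 reads in W4 and 100 in S4, a ratio of -3.82 (-5.30 to -2.65). It had 57 reads in S1 and 0 in S7. The prediction table gives it the seed of mouse miR-215-3p, the other arm of miR-215 in that species. SSCX_18135/SSCX_18482 held 12 reads in W4 and 109 in S4, but 4 in S1, where its level was below that of W4. SSC13_2521 held 17 reads in W4 and 51 in S4, and its level of 3.77 CPM in W4 was that of S1 (3.78 CPM). SSC13_2521 differs at 2 of 19 bases from miR-22-3p, which had 28583 reads in W4 and 38232 in S4 and a ratio of -0.18. For none of these 3 candidates was W4 2-fold or more below every suckling library.

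By library total another 72 sequences were at least 2-fold higher in W4 without being so with TMM scaling. They held 18.5% of counts in W4 and 7.80% in S4. Next to miR-146a-5p stood miR-7, which is abundant in endocrine cells of mouse gut and pancreas, with 2555 reads in W4 and 909 in S4 and a ratio of 1.73 (1.62 to 1.84). With TMM scaling miR-7 was at 0.90. It stood at 567 CPM in W4, against 171 CPM in S4, 213 CPM in S1 and 410 CPM in S7, so suckling pools also differed. miR-21, induced in injured and inflamed tissue and the sixth most abundant sequence of the pair, stood at 43050 CPM in W4 and 15591 CPM in S4, a ratio of 1.47 and 0.64 with TMM scaling.

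The reverse group, lower with TMM scaling only, held 14 sequences. Besides miR-194a it included miR-182 at -0.27 (-1.10 with TMM scaling), miR-210, a miRNA induced by low oxygen, at -0.27, and the liver miRNA miR-122 at -0.89. SSC18_6061, which the prediction table gives the seed of human miR-96-5p, held 109 reads in W4 and 234 in S4, a ratio of -0.86. In other mammals miR-96 is made together with miR-182 and miR-183. miR-183 was at 0.51, so the measured members of that group did not have like ratios.

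The lists of marker miRNAs set these sequences beside the cell types of the gut wall. miR-192 and miR-215, which define intestinal epithelium, were among the 3 most abundant sequences of each library. Fewer cells of a type and less RNA per cell cannot be told apart in these pools. The epithelial list had 6 of 11 members measured, while no sequence here carried the name of miR-375, miR-141 or miR-200a, b or c. Its summed level was 225509 CPM in W4 and 547848 CPM in S4, and its median log2 ratio was -1.19, against 0.83 over all 244 sequences. By library total 4 of the 6 were 2-fold lower, where 2.87% of all 244 were, and 5 with TMM scaling, where 8.61% were. The exception was miR-429, of the miR-200 family that keeps cells epithelial, at 0.25 (0.20 to 0.30) and -0.58 with TMM scaling. Of the 5 other epithelial and secretory miRNAs, 2 were 2-fold higher by library total (33.6% of all), miR-7 and miR-205, and 1 was 2-fold lower with TMM scaling (8.61% of all), miR-182. That list summed to 4352 CPM in W4 and 4403 CPM in S4.

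The leukocyte list had 6 of 7 members measured, and miR-223 of neutrophils had no named sequence here. It summed to 7291 CPM in W4 and 2620 CPM in S4. By library total 5 of 6 were at least 2-fold higher, where 33.6% of all 244 sequences were, and the median was 1.51. With TMM scaling it was 1 of 6, miR-155-5p, where 4.10% of all were. The arms of miR-142, present in nearly all blood cells, had 26351 and 1887 reads in W4 and 11429 and 749 in S4, for 5p and 3p in that order, and ratios of 1.44 and 1.57. miR-150 of mature lymphocytes was at 1.25 (1.04 to 1.45), and miR-342 was lowest at 0.69. The inflammation list overlaps this one in miR-146a-5p and miR-155-5p. All 8 of its measured members were at least 2-fold higher by library total (33.6% of all 244) and 4 with TMM scaling (4.10% of all), from miR-222 at 1.12 to miR-146b at 3.44. These lists were chosen with results of these libraries known, so their counts are a description. The part of leukocyte and epithelial content in these ratios was not tested.

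The other cell type lists had medians between 0.62 and 1.11 by library total, except for liver. The median over all 244 sequences was 0.83. With TMM scaling the medians of the lists other than liver lay between -0.21 for red blood cells and 0.28 for mesenchyme. No member of them was then 2-fold higher or lower. Smooth muscle and stroma had a median of -0.08 with TMM scaling, and miR-143-3p was at -0.17. The ratios that follow are by library total. Smooth muscle and stroma, with 4 of 4 measured, had a median of 0.75, from miR-143-3p at 0.66 to miR-145-5p at 1.10, and summed to 324723 CPM in W4 and 204817 CPM in S4. The endothelial arms of miR-126 were at 0.97 and 0.90. The mesenchymal miR-199 and miR-214 sequences had a median of 1.11, and 8 neuronal ones 1.08, from miR-128 at 0.47 to miR-129a at 1.58. Of the mesenchymal ones, miR-199a-3p and miR-199b-3p are the same over 21 aligned bases. They had 20640 and 20594 reads in W4 and 11281 and 11260 in S4, so they may be largely the same reads. Red blood cell miRNAs had a median of 0.62 and summed to 622 CPM in W4 and 488 CPM in S4. Striated muscle had 4 of 8 measured and a median of 0.93. miR-122, which marks liver, was low in both libraries, at 10.9 CPM in W4 and 20.1 CPM in S4. With 10.5 CPM in S1 and 11.5 CPM in S7, W4 lay within the suckling libraries and S4 was the highest of them.

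**Figure D4:**
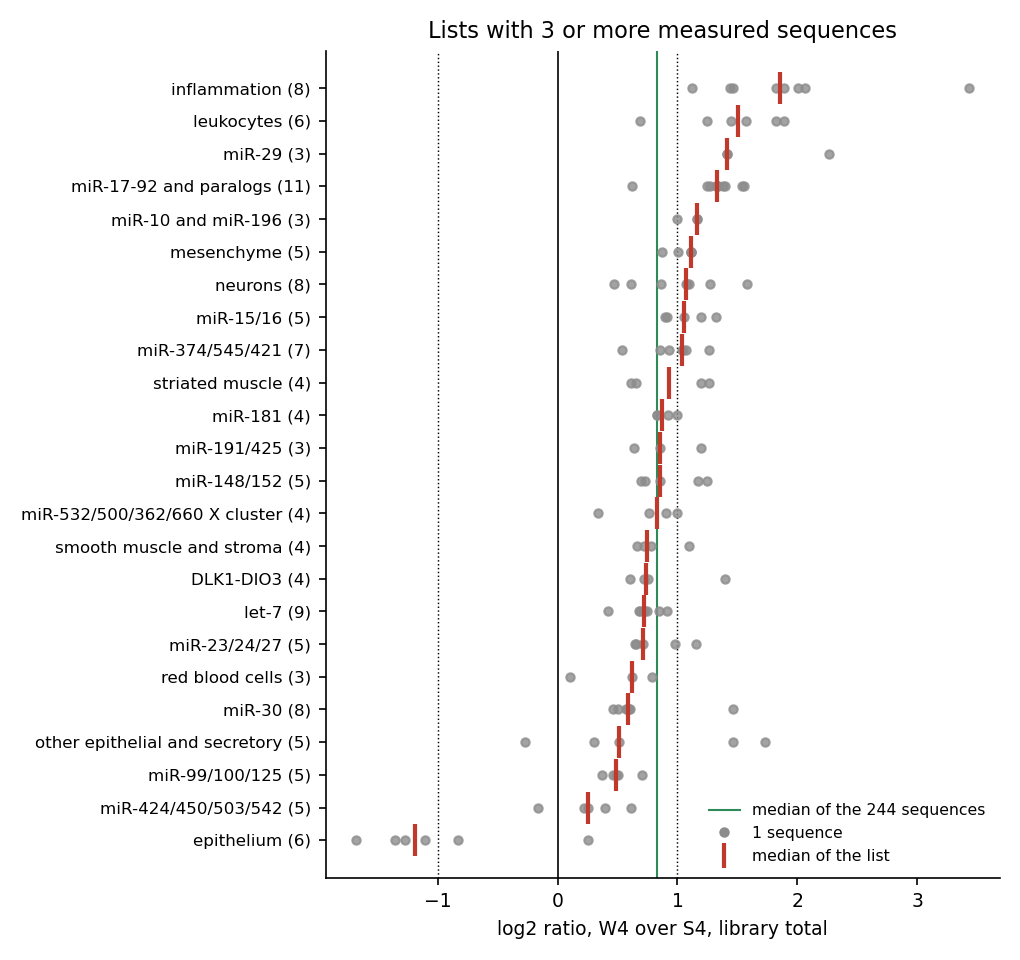
Log2 ratio of W4 over S4 by library total for the measured members (grey points) of each list with 3 or more, with the median of the list in red and that of all 244 sequences in green. The epithelial list lies lowest, with a median of -1.19, and that of inflammation highest, with 1.86.

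Among families and clusters, the miR-17-92 group, known for driving proliferation, had 10 of 11 sequences at least 2-fold higher by library total (33.6% of all 244) and 0 with TMM scaling (4.10% of all). Its members ran from miR-92a at 0.62 to miR-18a at 1.56, and the median was 1.33. miR-92a was the most abundant of them, with 35489 reads in W4 and 27198 in S4, so the summed ratio of the group was only 0.81. The let-7 family, which marks differentiated cells, had 9 sequences within a narrow range, from let-7g at 0.42 to let-7d-3p at 0.91, and none was 2-fold apart under either scaling. The group of miR-125, miR-100 and miR-99 ran from miR-125a at 0.37 to miR-125b at 0.70. The lowest median after that of epithelium and of the single miRNAs miR-122 and miR-210 was that of the group of miR-542, miR-450 and miR-424, 0.26, from miR-450b-5p at -0.16 to miR-424-5p at 0.61. Also below the overall median were miR-30 at 0.58 and miR-26a at 0.54, while miR-15/16 stood at 1.06, miR-101 at 1.29 and miR-378 at 1.26.

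The most abundant sequences show how the whole profile was redistributed. miR-143-3p was the most abundant sequence of W4, with 32.07% of counts (exact binomial interval 32.02% to 32.11%), and had 20.29% in S4. miR-192 had 15.46% of counts in W4 and 33.39% in S4 (33.35% to 33.43%), where it was the most abundant. For miR-215 the share was 5.95% in W4 and 19.09% in S4. Together miR-192 and miR-215 held 21.4% of counts in W4 and 52.5% in S4, which was 31.1 percentage points less. The sequences that gained the most share were miR-143-3p with 11.8 points, miR-10a-5p with 2.87, miR-21 with 2.75 and miR-10b with 2.56. In all 415 sequences held a larger share in W4. miR-10a-5p and miR-10b lie in Hox gene clusters, share a seed, and had the same ratio of 1.16.

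Of the other abundant sequences, miR-148a-3p was at 0.86, miR-27b-3p at 0.65, miR-27a at 0.66 and miR-30a-5p at 0.58. With the constant shift of TMM scaling these 4 lay between -0.24 and 0.03. All sequences other than miR-143-3p, miR-192 and miR-215 together held 46.5% of counts in W4 and 27.2% in S4. Taking these 3 out of the total lowers every other log2 ratio by 0.77.

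How far suckling pools lay apart gave a scale for these ratios, since W4 and S4 had no replicates. Over the same 244 sequences the median log2 ratio was 0.83 for W4 over S4, against 0.14 for S7 over S1, -0.07 for S4 over S1 and 0.19 for S7 over S4. Around the median of its own pair, 31 sequences were 2-fold or more away in W4 over S4. The number was 14 in S7 over S1, 11 in S4 over S1 and 16 in S7 over S4. The median distance from that median was 0.29 in W4 over S4, and 0.17 to 0.22 among the suckling pairs. By library total W4 lay above all 3 suckling libraries for 212 sequences, below all for 11 and between them for 21. With TMM scaling over the 6 libraries it lay above for 110, below for 45 and between for 89. These suckling libraries differed in age, and S4 takes part in more than 1 of these ratios, so the numbers are not an error.

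**Figure D5:**
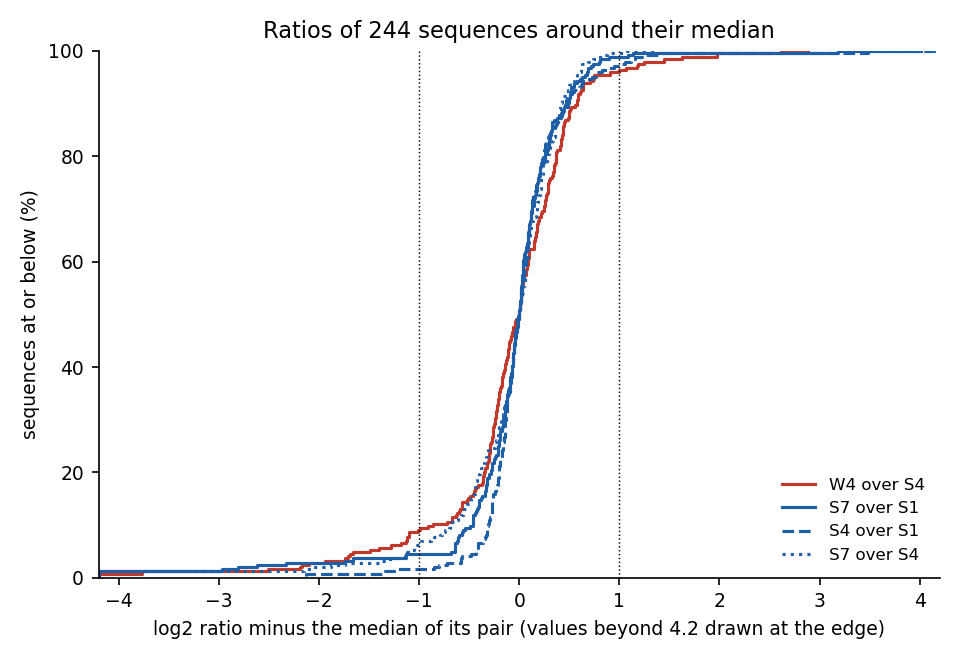
Share of the 244 sequences (vertical, percent) at or below each log2 ratio (horizontal), with the median of each pair set to 0. W4 over S4 is in red and the 3 suckling pairs are in blue, and dotted lines are 2-fold. The red curve is less steep than the blue ones, with 31 sequences beyond 2-fold against 11 to 16.

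In most groups with a shared seed the ratios lay close together. The 35 groups held 96 sequences, and the highest and lowest member were within 0.5 of each other in 24 groups. The median distance was 0.18. No such count was made for sequences without a shared seed. All 244 lay a median of 0.29 from their own median, so close ratios were common, and many groups hold near copies. The 5 miR-30 sequences with one seed, for example, ran from 0.46 to 0.60, and the 4 of miR-17-5p, miR-20a, miR-20b and miR-106a from 1.32 to 1.38. In 3 groups the distance reached 1 or more. Besides miR-146b with miR-146a-5p these were miR-22-3p with SSC13_2521, and miR-363, miR-92a, miR-92b-3p and miR-32, which ran from 0.20 for miR-32 to 1.33 for miR-363. Among the 244 sequences, 71 pairs differ by 2 bases or fewer over 16 or more aligned bases and could share reads.

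The arms of a hairpin also had like ratios. For 31 precursors both arms were measured with 50 or more reads together in each library. By library total both ratios had the same sign for 30. Under that scaling 220 of all 244 sequences were above 0, so a shared sign was the common case. With TMM scaling, where 121 of 244 were above 0, the arms of let-7d, miR-145, miR-148b, miR-30c and miR-425 had opposite signs. The arms were within 0.5 in 27, and none was 1 or more apart. No such count was made for unrelated sequences, and all 244 lay a median of 0.29 from their own median. The widest distance was that of miR-30c, whose 3p arm had 63 reads in W4 and 27 in S4 and a ratio of 1.46, against 0.46 for the 5p arm. The Wilson intervals of the 5p share were apart for 6 precursors, among them miR-423 with 36.7% in W4 (34.8% to 38.6%) and 42.2% in S4 (40.4% to 44.1%). The largest difference in share was 6.08 percentage points, for miR-361, where the intervals overlapped.

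Neighbouring miRNA genes gave a further view of the same sequences. By name, 188 of the 202 known sequences matched a miRNA gene of the RefSeq annotation of Sscrofa11.1, and 27 groups of genes lay within 10000 bases of each other. The group of miR-17, miR-18a, miR-19a, miR-20a and miR-92a ran from 0.62 to 1.56, and its X-linked relative with miR-363, miR-20b, miR-18b and miR-106a from 1.32 to 1.54. By library total, those of miR-215 with miR-194b and of miR-192 with miR-194a were the only groups with every measured sequence below 0. They were also the only groups in which every measured sequence was 2-fold lower with TMM scaling. Other groups lay wholly below 0 with TMM scaling, for example miR-30d at -0.25 with miR-30b-5p at -0.33. The study aligned reads to an older build, so no positions are given.

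The composition of a sequence went along with its ratio to a small degree. The 56 sequences with a GC content under 40% had a median log2 ratio of 1.07, the 86 with 40% to under 50% had 0.83, the 65 with 50% to under 60% had 0.72 and the 37 with 60% or more had 0.61. Of those 37, 8 were 2-fold lower with TMM scaling, where 21 of all 244 (8.61%) were, and 1 was 2-fold higher, where 10 of 244 (4.10%) were. Most of the 8 had few reads, and 4 were candidates. SSC14_2736 and SSC10_132 had a GC content of 94.7% and ratios of -0.92 and -0.66. Between suckling pools these candidates lay further apart, with log2 ratios of S7 over S1 of -2.67 and -2.48. The other candidates of the 8, SSC18_5778/SSC18_5981 and SSC7_16050, were there at -2.83 and -2.19. The known sequences of the 8 were there between -0.43 and 0.55. The part of GC content in the ratios was not tested. The 10 sequences higher under both scalings had a median GC content of 41.9%, and the 7 lower ones 47.6%, as did all 244. Level made less of a difference, with medians of 0.82 for the 32 sequences with 50 to under 100 reads, 0.78 for 97 with 100 to under 1000, 0.90 for 71 with 1000 to under 10000 and 0.67 for 44 with 10000 or more.

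By the length of the mature sequence, 21-base sequences held 60.2% of counts in W4 and 77.2% in S4, and 22-base sequences 30.8% in W4 and 17.3% in S4. miR-143-3p, miR-192 and miR-215 are all 21 bases long. Without them the shares were 14.5% in W4 and 16.2% in S4 for 21 bases, and 66.2% in W4 and 63.6% in S4 for 22. Most of the difference in length thus went with these 3 sequences.

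The 41 measured candidates had a median of 0.75 and the 202 known sequences 0.84, but candidates held the highest and the lowest ratio. Of the 41 candidates, 5 were 2-fold higher under both scalings and 8 were 2-fold lower with TMM scaling, against 5 and 13 of the 202 known sequences. All candidates together held 15035 reads in W4 and 9287 in S4, or 0.334% and 0.175% of counts. Sequences found in W4 and not in S4 numbered 65, none with more than 10 reads, and 25 were found in S4 and not in W4, with 20 reads at most. No sequence with a fair number of reads was thus limited to either library.

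The 17 sequences were also looked up in the other pairs of the series. Of the 10 higher ones, 4 were at least 2-fold higher by library total in W1 over S1, where 6.56% of the 244 sequences were, and 6 in W7 over S7, where 7.82% of 243 were. With TMM scaling over the 6 libraries these were 3 of the 10 (2.87% of all) in W1 over S1 and 6 (4.53%) in W7 over S7. miR-146b had a log2 ratio of 0.64 at 1 d and 2.21 at 7 d, miR-132 0.41 and 1.29, and miR-29b 0.46 and -0.29. Of the 7 lower ones, 1 was 2-fold lower by library total in W1 over S1 (2.87% of all) and 2 in W7 over S7 (3.70%). The first was SSC1_7989, with 0 reads in W1 and 57 in S1. With TMM scaling these were 1 (3.69%) and 4 (7.00%). miR-215 was at -0.35 at 1 d and -0.99 at 7 d, and miR-194b-5p at -0.44 and -1.07. Whether the days differ was not tested, since each pair holds 1 library of each kind.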

How the data were processed

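Small RNA of 15 to 32 nt from pools of 4 piglets was sequenced by the authors. They cleaned the reads, mapped them to the draft pig genome (Sscrofa 9.2) with no mismatch allowed (Bowtie 0.12.2, named by the submitters), matched them to miRBase release 19 and searched for candidates with miRDeep. What they deposited are raw read counts, 1 row per mature sequence. The sources used here do not say how reads that fit several sequences were counted.

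Where a sequence stood on several rows (46 in W4, 38 in S4) the highest count was used once. Candidates were named by identity with the study's candidate table, and known miRNAs by counts, 20 reads or more, that equalled a row of its table of known miRNAs in all 6 libraries. Of 151 known names that could be checked, 133 shared 15 or more bases with an aligned read. miR-24 stood on differing sequences with nearly equal counts, and no value of it is given.

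TMM factors came from edgeR 4.0.16 on the pair and on all 6 libraries (R 4.3.3), and size factors from DESeq2 1.42.0. Intervals are exact conditional binomial (ratios and shares) or Wilson (arms) at 95% (scipy 1.17.1, Python 3.11.15). They treat each read as an independent count, so they cover counting error only. Reads carried no molecular identifiers, so copies of a molecule made by PCR could not be told apart. The interval of the ratio was tested on simulated data. Alternatives were other scalings, read minimums, folds, a pseudocount, summed rows and another reference.

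The members, the lists and the rules were chosen with earlier results of these data known. Named were all sequences 2-fold apart under both scalings, the 10 with most reads, the highest and lowest member of each list, arm partners and sequences with a shared seed. Others were named after their values were seen.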

Additional observations from a re-analysis of the deposited data

How the results depend on the processing

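The number of sequences at least 2-fold apart depended on the scaling, the read minimum and the fold. By the library total 82 were higher and 7 lower. With TMM scaling of the pair these were 10 and 21, with TMM of 6 libraries 12 and 18, and with size factors of DESeq2 11 and 21. The total less miR-143-3p, miR-192 and miR-215 gave 11 and 20, and the clean reads gave 47 and 11. With the clean reads in place of TMM, 47 were higher under both scalings. A minimum of 200 reads left 4 lower, and 4 under both scalings. Without a minimum there were 208 higher and 44 lower, and 93 higher and 44 lower under both, many with 0 or a few reads. At 1.5-fold there were 172 higher and 12 lower, and 22 and 12 under both. At 3-fold there were 12 and 3, and 5 and 3 under both. Requiring the whole interval beyond 2-fold left 46 higher, and 5 under both. With the mean of S1 and S7 in place of S4, chosen after the data were seen, 49 were higher. The other counts stayed within 1.5 times with a minimum of 20 or 100 reads, summed rows or 5 reads added. Every other scaling shifted the ratios by an amount between those of the library total and TMM of the pair. The 17 sequences were chosen under these 2, so none could change sign under another scaling. With the mean of S1 and S7 as the reference all 17 kept their sign, but SSC13_2521 went from -1.35 to -0.13. Of the 10 most abundant, miR-143-3p, miR-27a, miR-27b-3p and miR-30a-5p changed sign between scalings. By library total they stood at 0.66, 0.66, 0.65 and 0.58. With TMM scaling of the pair they stood at -0.17, -0.17, -0.18 and -0.24, in the same order. The pools drew on the same litters, but no paired analysis was possible because each condition has 1 library. With 1 pool each, differences between piglets, pools and library preparations cannot be told apart from weaning.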
